A study of Mus musculus with 4 samples.

Results

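The cells described here were 780 epithelial cells from urogenital sinus (UGS) explants after 6 days of culture, selected on *Vcan* transcripts, which encode versican. They were chosen by a rule applied to single-cell counts, and are called *Vcan*-positive cells below. A cell was taken if it carried the day 6 sample barcode, at least 1 *Epcam* and fewer than 2 *Pax2* unique molecular identifiers (UMIs, each standing for 1 captured RNA molecule), at least 3 *Vcan* UMIs, less than 25 *Krt5* plus *Krt14* UMIs per 10000 and less than 20 *Col1a1* plus *Col3a1* UMIs per 10000. The 780 cells were 31.4% (95% exact binomial interval 29.5 to 33.2) of the 2487 day 6 cells that met the *Epcam* and *Pax2* limits. They came from 7474 cells in the explant library and 19148 in the 4 libraries of the series. The other 1707 day 6 cells were the comparison, of which 1046 were *Krt5*/*Krt14*-high (25 or more per 10000).

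The UGS was taken from ICR (CD-1) mouse embryos at E15.5 and grown on a filter in medium with 10 μM dihydrotestosterone, a potent androgen, and cells were collected on day 0 (the embryonic tissue), 1, 3 and 6. No transgene was used in these explants. For each day, tissue cut from the centre of several explants was combined into 1 pool, from which viable cells with surface EPCAM were isolated by sorting and tagged with a day-specific lipid-anchored DNA oligonucleotide (MULTI-seq) before a single 3′ droplet library was made. Each day was therefore 1 pooled sample of 1 library, the explants within a pool could not be told apart, and no difference given here has a replicate check. Intervals cover counting error only, and no test across cells was run.

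The UGS epithelium is the embryonic tissue from which prostate buds grow into the surrounding mesenchyme under androgen. Versican is a large chondroitin sulphate proteoglycan of the provisional matrix, which binds hyaluronan and is stabilised there by link proteins. SOX9 is a transcription factor of the growing buds, while *Krt4*, *Psca* and *Ly6d* mark proximal luminal epithelium.

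The day of each cell was read from the oligonucleotide it carried, and the sequences are shown because the whole selection of day 6 cells rests on them. Capitals mark the sample-specific bases, between a shared primer site and a poly-A capture tail.
day 0: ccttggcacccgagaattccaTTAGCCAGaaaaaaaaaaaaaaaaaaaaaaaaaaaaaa
day 1: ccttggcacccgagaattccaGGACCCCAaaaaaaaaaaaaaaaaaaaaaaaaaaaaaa
day 3: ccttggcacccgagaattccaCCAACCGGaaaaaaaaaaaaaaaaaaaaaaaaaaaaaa
day 6: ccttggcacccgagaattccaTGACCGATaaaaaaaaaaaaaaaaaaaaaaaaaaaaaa
The day 6 barcode had the highest median over all 7474 cells, at 148 UMIs against 10, 16 and 30 for days 0, 1 and 3. These medians include the cells that carry the barcode, so they do not measure background alone. Day 6 also had the most cells assigned, 2568 against 902, 985 and 1086. Among the 2568 cells assigned to day 6 the median of the day 6 barcode was 1137.5. The explant library shared 16 cell barcodes with the adult libraries, 2 of them among the *Vcan*-positive cells.

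*Vcan*-positive cells were deeper than the cells they were compared with, and a limit on the number of *Vcan* UMIs is not adjusted for depth. Their median was 16229.5 UMIs and 3739.5 genes, against 12480 UMIs and 3231 genes in the other day 6 cells. Levels are given as UMIs summed over a group in CPM, that is, scaled to the total UMIs of the group, and a gene counted as higher or lower when the ratio was at least 1.5-fold, leaving out genes that averaged under 20 CPM over both groups.

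*Vcan* (GRCm38, chr13:89655312-89742509, minus strand) had no gap in its range at the limit. The *Vcan*-positive cells held a median of 6 *Vcan* UMIs, with quartiles of 4 and 9 and a maximum of 30. Just inside the limit were 136 cells with 3 UMIs, and just outside it were 148 cells with 2 UMIs that met every other limit. The keratin limit also cut through a continuum, with 92 *Vcan*-positive cells at 20 to 25 *Krt5* plus *Krt14* UMIs per 10000, and 57 excluded cells with at least 3 *Vcan* UMIs at 25 to 30 per 10000. Only 47 of the 780 cells had no *Krt5* or *Krt14* UMI at all.

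**Figure D1:**
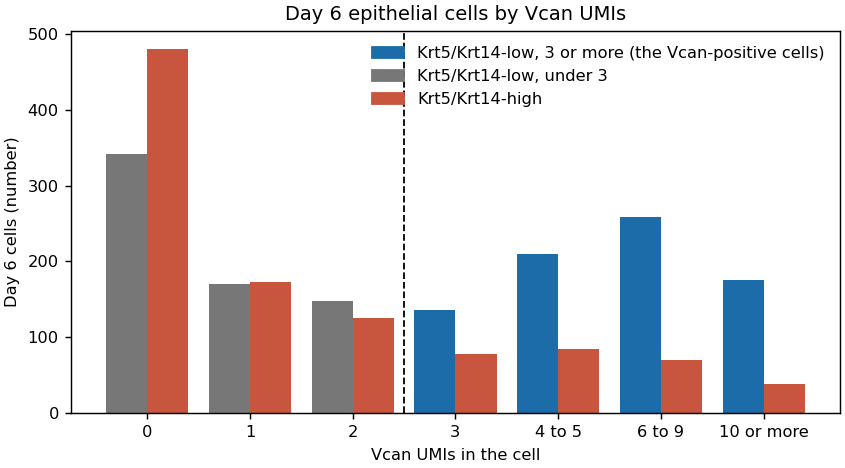
Number of day 6 *Epcam*-positive, *Pax2*-low cells (vertical axis) by the number of *Vcan* UMIs in the cell (horizontal axis), for *Krt5*/*Krt14*-low cells (blue and grey) and *Krt5*/*Krt14*-high cells (red), with the dashed line at the limit of 3 UMIs. There is no gap at the limit: 148 *Krt5*/*Krt14*-low cells had 2 UMIs and 136 had 3.

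The rule fixes that *Vcan* is higher in the *Vcan*-positive cells, so its shares are given as a description. After each cell was thinned to 6000 UMIs, a *Vcan* UMI remained in 90.6% of 779 *Vcan*-positive cells (88.4 to 92.6) and in 35.3% of 1683 other cells (33.0 to 37.6), with 1 and 24 shallower cells left out. The *Krt4*/*Psca* cells of day 6, defined by at least 5 *Krt4* plus *Psca* UMIs per 10000, had a *Vcan* UMI in 1 of 34 thinned cells (2.94%, 0.0744 to 15.3), at a median depth of 13588.5. That low share is partly fixed by the rule, since a *Krt5*/*Krt14*-low cell with 3 *Vcan* UMIs counts as *Vcan*-positive, and 3 of the 780 cells also reached the *Krt4*/*Psca* level. Cells with at least 2 *Pax2* UMIs, which marks mesonephric duct derivatives, had one in 7.41% of 108 thinned cells over all days (3.25 to 14.1) at a median depth of 18614.5, and in 19.2% of the 26 on day 6 (6.55 to 39.4). Mesenchyme carries versican too: 38 of 51 thinned cells with at least 20 *Col1a1* plus *Col3a1* UMIs per 10000, over all days, had a *Vcan* UMI (74.5%, 60.4 to 85.7).

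*Sox9* (chr11:112782224-112787760, plus strand), the other gene used to name these cells, differed little between the groups. It stood at 193 CPM in *Vcan*-positive cells and 142 CPM in the others, a log2 ratio of 0.44 (0.37 to 0.51), short of 1.5-fold. With cells thinned to 6000 UMIs, 63.2% of *Vcan*-positive cells (59.7 to 66.6) and 49.1% of the others (46.7 to 51.6) had a *Sox9* UMI, and the unthinned shares were 88.7% and 68.0%. *Krt5*/*Krt14*-high cells stood at 151 CPM and *Krt4*/*Psca* cells at 58.0 CPM. The cells are therefore named by *Vcan* alone here.

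Bud and prostate identity genes went both ways. *Etv4* (chr11:101769742-101785371, minus strand), an ETS factor read as a target of FGF signalling, stood at 165 and 63.2 CPM, with a UMI in 53.5% and 21.9% of thinned cells. Of the 13-paralogue *Hox* genes that pattern the hindgut and urogenital region, *Hoxd13* was higher, at 51.8 and 30.1 CPM (log2 ratio 0.78). *Hoxb13* stood at 100.01 and 67.4 CPM (0.57), just short of 1.5-fold. Of 20 genes of that list compared, 5 were higher and 3 lower, and the list median was 0.24, while over all 5362 genes 323 (6.02%) were higher, 400 (7.46%) were lower and the median was 0.04. The 3 lower ones were *Elf3* (9.48 and 37.1 CPM), *Klf5* (71.5 and 229 CPM) and *Ehf* (66.6 and 157 CPM), all epithelial transcription factors. *Shh*, the ligand by which the epithelium signals to mesenchyme, stood at 49.7 and 45.9 CPM, within 1.5-fold. Of 8 androgen-response genes compared, 3 were higher, among them *Homer2* and *Odc1*, and 1 was lower (*Ndrg1*, which is also in the hypoxia list).

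The 15 genes with the highest ratios were of mixed function. *Wif1* (chr10:121033960-121100650, plus strand), which binds Wnt ligands outside the cell, led them at 146 CPM against 35.2 CPM, a log2 ratio of 2.06 (1.94 to 2.17). A *Wif1* UMI was found in 40.2% of thinned *Vcan*-positive cells (36.7 to 43.7) and 10.7% of thinned others (9.26 to 12.3). *Mest* (64.5 and 17.0 CPM) and *Peg3* (285 and 120 CPM) are paternally expressed imprinted genes. Others of the 15 were *Rasl11b* (log2 ratio 1.76), *Capn6* (1.65), the scaffold gene *Homer2* (1.60), the secreted Frizzled-related protein gene *Sfrp2* (1.40), *Etv4* (1.39), the collagen chain gene *Col9a3* (1.37), the BCL2-family gene *Bok* (1.33), *Igfbp4* (1.32), which encodes an IGF-binding protein, *2810001G20Rik* (1.32), the glutathione peroxidase gene *Gpx2* (1.31), and the replication-dependent histone genes *Hist1h2ae* (1.39) and *Hist1h1b* (1.24). Histone genes of 1 cluster have near-identical copies, so the histone values are uncertain.

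**Figure D2:**
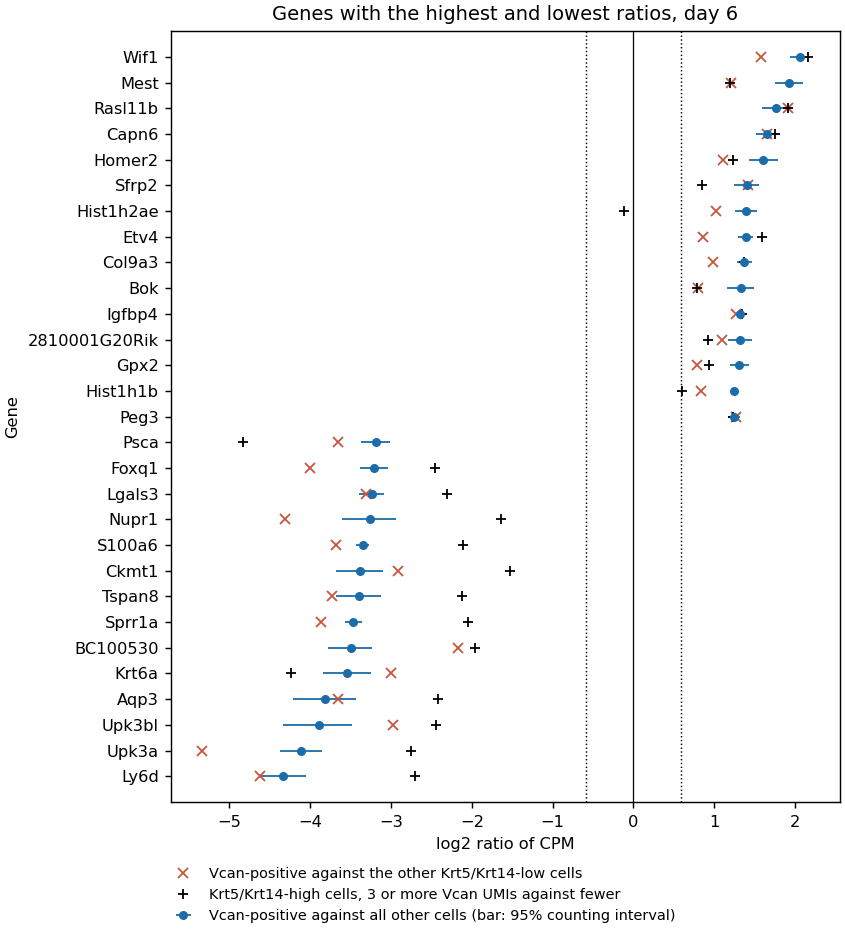
Log2 ratio of CPM (horizontal axis) for genes among the 15 highest and the 15 lowest ratios (vertical axis). Blue points with 95% counting intervals are *Vcan*-positive cells against all other day 6 cells, red crosses the same cells against the other *Krt5*/*Krt14*-low cells, black plus signs *Krt5*/*Krt14*-high cells with at least 3 *Vcan* UMIs against those with fewer, and dotted lines mark 1.5-fold. *Wif1* is at 2.06 and *Ly6d* at -4.33, and the 3 marks lie on the same side of 0 for every gene plotted but *Hist1h2ae*.

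The 15 lowest ratios included genes of the proximal luminal and urothelial lists. *Ly6d* stood at 7.40 CPM in *Vcan*-positive cells and 149 CPM in the other day 6 cells, a log2 ratio of -4.33 (-4.63 to -4.05). A *Ly6d* UMI was found in 28 of 780 and 212 of 1707 cells, so most of the other cells had none. *Upk3a*, which encodes a uroplakin of the bladder lining, stood at 9.62 and 166 CPM, with a UMI in 28 of 780 and 167 of 1707 cells, and 61 of its 134 UMIs in the *Vcan*-positive cells came from 1 cell. *Psca* stood at 20.2 and 184 CPM, with a UMI in 33 of 780 and 172 of 1707 cells. Of its 281 UMIs in *Vcan*-positive cells 144 likewise came from 1 cell, and of its 4361 in the other cells 449 did. *S100a6* (106 and 1080 CPM), *Sprr1a* (56.0 and 619 CPM), a precursor of the cornified envelope, and *Lgals3* (27.4 and 259 CPM), which encodes galectin-3, were abundant in the other cells. Others of the 15 lowest were *Upk3bl* (log2 ratio -3.90), the water channel gene *Aqp3* (-3.81), the keratin gene *Krt6a* (-3.54), *BC100530* (-3.50), *Tspan8* (-3.40), *Ckmt1* (-3.38), *Nupr1* (-3.26) and *Foxq1* (-3.20). The ratio of *Nupr1* depended on the *Vcan* limit and was -1.51 with a limit of 2 UMIs. Of 20 proximal luminal genes compared, 17 were lower and none was higher, with a list median of -1.44, while 7.46% of all genes were lower. All 4 urothelial genes compared were lower (*Upk3a*, *Foxq1*, *Krt7* and *Upk1b*). *Runx1*, the gene followed by the study, stood at 41.6 and 80.2 CPM (-0.95, -1.09 to -0.81), and *Krt8* at 474 and 837 CPM (-0.82).

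Since 1046 of the 1707 comparison cells were *Krt5*/*Krt14*-high by the rule itself, the same 780 cells were set against the 661 other *Krt5*/*Krt14*-low cells alone. There 238 of 5398 genes (4.41%) were higher and 382 (7.08%) lower. All of the 15 highest and all of the 15 lowest genes stayed past 1.5-fold in the same direction. They were named from a contrast with the same 780 cells that included these 661, and *Vcan* divided the cells in both. Their staying past the limit was thus largely set by how they were picked, and is given as a description. *Wif1* stood at 48.9 CPM in those 661 cells, giving a log2 ratio of 1.58. *Upk3a* was concentrated in them, at 390 CPM against 15.2 CPM in *Krt5*/*Krt14*-high cells, so its log2 ratio was -5.34 here and -0.66 against *Krt5*/*Krt14*-high cells. *Hoxb13* (48.6 CPM, log2 ratio 1.04) and *Fgfr1* (35.3 CPM, 1.27) differed more from the *Krt5*/*Krt14*-low cells than from the whole comparison. *Sox9* stood at 129 CPM there, a log2 ratio of 0.58, just short of 1.5-fold.

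The limit on *Vcan* could also be set within *Krt5*/*Krt14*-high cells, none of which is a *Vcan*-positive cell as defined here. The 268 such cells with at least 3 *Vcan* UMIs had 185 of 5334 genes (3.47%) higher and 226 (4.24%) lower than the 778 with fewer. Of the 15 highest genes, 14 were past 1.5-fold in the same direction, the exception being *Hist1h2ae* at -0.11, and all 15 of the lowest were. *Wif1* had a log2 ratio of 2.16, *Etv4* 1.59, *Rasl11b* 1.91 and *Col4a1* 1.63 between them. *Apoe* went opposite ways: 1.59 between *Krt5*/*Krt14*-high cells with and without *Vcan*, but -0.56 between *Vcan*-positive cells and the whole comparison. The genes were named from a contrast that included these cells, and *Vcan* divided the cells in both, so the counts are a description.

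Along the *Vcan* range the levels of the leading genes had no break at the limit of 3 UMIs. In *Krt5*/*Krt14*-low cells *Wif1* stood at 23.3 CPM with no *Vcan* UMI, 60.5 with 1, 90.7 with 2, 97.7 with 3, and 169.5 with 10 or more. *Upk3a* stood at 717 CPM with no *Vcan* UMI, 102 with 1, 10.6 with 2 and 20.1 with 3, so for both genes the cells just outside the limit lay closer to those just inside it than to cells without *Vcan*. *Krt8*, which encodes a keratin of simple epithelium, went from 1594 CPM with no *Vcan* UMI to 356 CPM with 10 or more. *Mest* was no higher just inside the limit than just outside it, at 36.1 CPM with 2 *Vcan* UMIs and 32.3 with 3. It was higher beyond that, at 64.8 with 4 to 5 and 76.7 with 6 to 9. *Sox9* stood at 97.9 CPM with no *Vcan* UMI, 165 with 3 and 225 with 10 or more. Depth moved with these groups too, with median UMIs of 13357.5 in cells without *Vcan*, 13828 at 3 UMIs and 18560.5 at 10 or more, and its part in them was not tested.

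**Figure D3:**
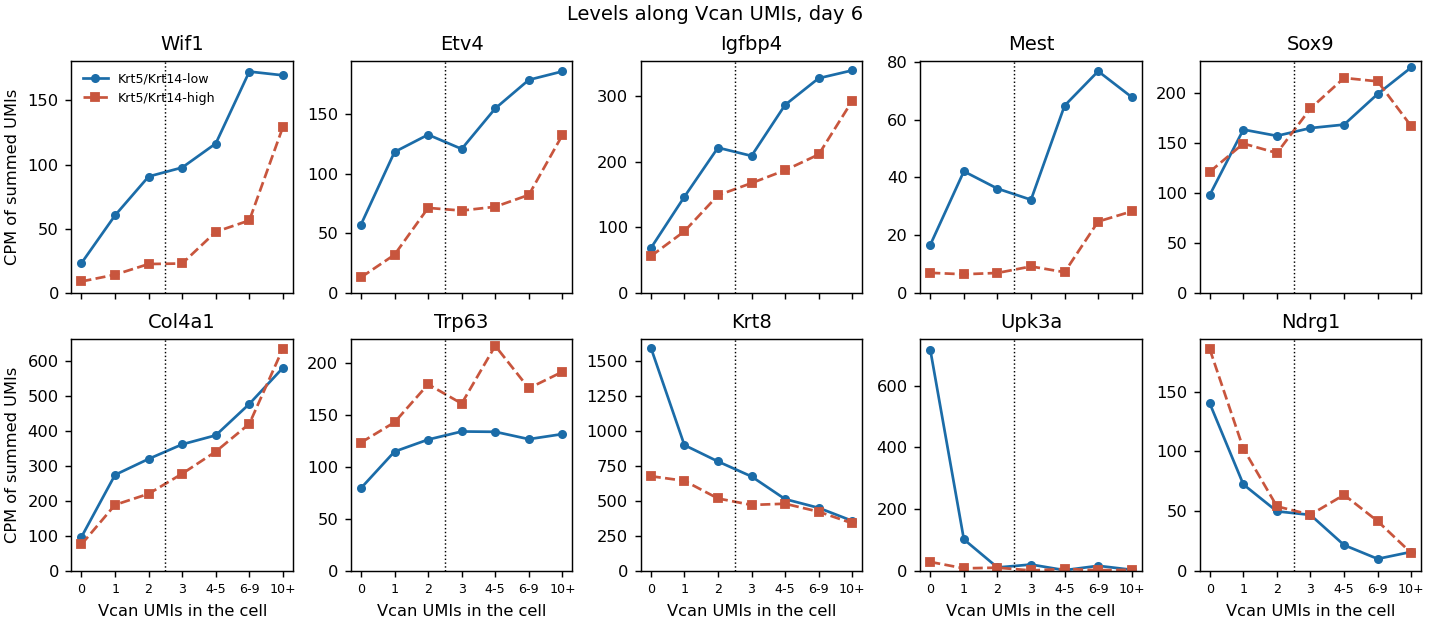
CPM of UMIs summed over cells (vertical axes, from 0) by the number of *Vcan* UMIs in the cell (horizontal axes) for 10 genes, in *Krt5*/*Krt14*-low cells (blue, solid) and *Krt5*/*Krt14*-high cells (red, dashed), with the dotted line at the limit of 3 UMIs. *Wif1*, *Etv4* and *Igfbp4* lie higher at 10 or more *Vcan* UMIs than at none in both, and *Upk3a* and *Ndrg1* lower.

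Pericellular matrix genes went both ways. Of 22 compared in the list of the versican network and pericellular matrix, 5 were higher and 4 lower, with a median of 0.08. Among all genes 6.02% were higher and 7.46% lower. Against the other *Krt5*/*Krt14*-low cells 11 of the 22 were higher and 2 lower, with a median of 0.52. There 4.41% of all genes were higher and 7.08% lower. *Adamts9*, a protease that cleaves versican, was higher (73.1 and 31.3 CPM, log2 ratio 1.22), and *Adamts1*, another, was lower (27.9 and 71.5 CPM, -1.36). *Cd44*, a hyaluronan receptor, stood at 39.8 and 26.4 CPM (0.60), and the matrix genes *Spock1* and *Fbln1* at log2 ratios of 0.93 and 0.74. *Hapln1*, the link protein that holds versican on hyaluronan, was too low to be compared, yet 35 of its 39 UMIs came from the *Vcan*-positive cells, in 30 cells with at most 3 each; it was picked out after its values were seen. *Sparc* (231 and 434 CPM) was lower, and *Dcn*, a small proteoglycan of mesenchyme, stood at 427 and 446 CPM. Against the other *Krt5*/*Krt14*-low cells *Dcn* was higher, with a log2 ratio of 1.22.

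The collagen IV chain genes *Col4a1* and *Col4a2* were higher, and *Col4a6* was lower. *Col4a1* stood at 464 and 203 CPM (log2 ratio 1.19) and *Col4a2*, its partner chain encoded beside it, at 198 and 101 CPM (0.97). A *Col4a1* UMI was present in 88.4% of thinned *Vcan*-positive cells (86.0 to 90.6) and 50.6% of thinned others (48.2 to 53.0). *Col18a1* was also higher (0.66). In contrast, *Col4a6* (-1.29) and the hemidesmosome gene *Col17a1* (-1.25) were lower. In all 8 of 23 basement membrane and adhesion genes were lower and 3 higher, with a median of -0.38. The shares among all genes were 7.46% lower and 6.02% higher. Against the other *Krt5*/*Krt14*-low cells 3 of 21 were higher, 1 was lower, and *Col17a1* changed sign to 0.13. There 4.41% of all genes were higher and 7.08% lower.

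Most genes of the basal list were lower, as the keratins of the rule were by choice. The paper also counts *Dcn*, *Apoe* and *Vcan*, with *Trp63*, among basal markers of its explant clusters. Of these only *Trp63* is in the list used here. *Dcn* stood at a log2 ratio of -0.07 and *Apoe* at -0.56, and *Vcan* was higher by the rule. Of 14 compared, with *Krt5* and *Krt14* left out, 10 were lower and none higher (median -0.96), while 7.46% of all genes were lower. The lowest were *Aqp3*, *Ly6a* (56.2 and 266 CPM) and *Sfn* (234 and 1065 CPM). *Trp63*, the transcription factor that defines basal cells, did not follow them in the whole comparison. It stood at 131 and 132 CPM, with a UMI in 50.8% and 47.8% of thinned cells. That comparison is mixed. The thinned share was 53.1% in *Krt5*/*Krt14*-high cells and 40.5% in *Krt5*/*Krt14*-low cells that were neither *Vcan*-positive nor *Krt4*/*Psca* cells. *Snai2* and *Cdh3*, also in that list, stood at log2 ratios of 0.44 and 0.34. Against *Krt5*/*Krt14*-low cells alone, 2 of 14 were higher and 4 lower, where 4.41% of all genes were higher and 7.08% lower.

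In the signalling and axon guidance lists single genes differed, while every list median was within 1.5-fold. The medians ran from -0.29 (guidance) to 0.20 (Notch), against 0.04 over all genes. In the Wnt list 6 of 19 genes compared were higher and 2 lower (median 0.01). The 3 highest were *Wif1*, *Sfrp2* (63.5 and 24.1 CPM) and the receptor gene *Fzd10* (49.2 and 21.4 CPM), and the Wnt-responsive factor *Lef1* was also higher (40.4 and 23.0 CPM), while the ligand gene *Wnt4* was lower (83.6 and 288 CPM) and *Wnt6* stood at -0.56. In the FGF list 3 of 11 were higher, *Etv4*, *Etv5* (24.99 and 15.4 CPM) and the receptor gene *Fgfr1* (84.8 and 50.02 CPM), and 2 were lower, *Fgfbp1* (85.3 and 303 CPM) and *Flrt3* (17.9 and 28.2 CPM). In the BMP and TGF-beta list 2 of 20 were higher, the ligand gene *Bmp7* (84.0 and 49.4 CPM) and the pseudoreceptor gene *Bambi* (34.6 and 21.1 CPM), and only *Id4* was lower (-0.60). Over all genes 6.02% were higher and 7.46% lower. Against the other *Krt5*/*Krt14*-low cells none of 18 BMP and TGF-beta genes was past 1.5-fold either way. There *Bmp7* stood at a log2 ratio of 0.50, *Bambi* at 0.30 and *Etv5* of the FGF list at 0.43. *Hey1*, a Notch target, was the 1 gene of 6 past the limit in the Notch list (34.2 and 12.1 CPM, log2 ratio 1.504), while *Notch1* stood at -0.17 and *Hes1* at 0.26. None of the 3 Hedgehog genes compared, *Shh*, *Ptch1* and *Smo*, was past the limit. Among axon guidance genes 2 of 9 were higher, *Robo2* (71.0 and 31.8 CPM) and *Sema6a* (41.5 and 21.9 CPM), and 2 lower, *Epha4* (-1.51) and *Efnb2* (-1.05).

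Proliferation genes were higher, by amounts that depended on how the cells were chosen. Of 24 S-phase genes compared 15 were higher and none lower (median 0.65). Of 25 G2/M genes 23 were higher and none lower (median 0.82), while 6.02% of all genes were higher. *Top2a*, a topoisomerase of dividing cells, stood at 269 and 142 CPM, with a UMI in 35.2% of thinned *Vcan*-positive cells (31.8 to 38.6) and 18.5% of thinned others (16.7 to 20.4). The upper 25% of all day 6 cells by the summed G2/M list held 38.3% of *Vcan*-positive cells (34.9 to 41.8). It held 28.2% of the 625 *Krt5*/*Krt14*-low cells that were neither *Vcan*-positive nor *Krt4*/*Psca* cells (24.7 to 31.9). The shares were 13.9% of *Krt5*/*Krt14*-high cells (11.8 to 16.1) and 5.56% of *Krt4*/*Psca* cells (0.680 to 18.7). With *Vcan* limited at 2 UMIs per 10000 in place of 3 UMIs, which scales the limit to depth, the G2/M median was 0.37 and the S-phase median 0.55, and without the tenth of cells with most UMIs the G2/M median was 0.44. Against *Krt5*/*Krt14*-low cells only 4 of 27 G2/M genes were higher, and 8 of 24 S-phase genes were, while 4.41% of all genes were. Between *Krt5*/*Krt14*-high cells with at least 3 *Vcan* UMIs and those with fewer, none of 22 G2/M genes was past 1.5-fold (median 0.21). In that contrast 10 of 21 S-phase genes were higher (median 0.52), while 3.47% of all genes were. Cell depth moved with the G2/M difference, and its part in it was not tested.

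Of 11 imprinted genes compared, 5 were higher (*Mest*, *Peg3*, *Meg3*, *Nnat* and *Dlk1*) and 1 was lower, *H19* (69.5 and 126 CPM, log2 ratio -0.86), with a median of 0.54, short of 1.5-fold, and of 0.16 with the filter lowered to 5 CPM. For comparison, 6.02% of all genes were higher and 7.46% lower. *Meg3*, a maternally expressed long non-coding RNA, stood at 1004 and 500.5 CPM, and *Dlk1*, its paternally expressed neighbour, at 136 and 75.9 CPM. Per cell, the summed imprinted list had a median of 27.2 UMIs per 10000 in *Vcan*-positive cells, with quartiles of 19.04 and 36.3, against 15.04 with quartiles of 7.80 and 24.3 in the others. After thinning, a *Meg3* UMI was present in 87.8% of *Vcan*-positive cells and 53.0% of the others.

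Most hypoxia and immediate early genes compared were lower, while most genes of the integrated stress response were within 1.5-fold. The shares over all genes were 6.02% higher and 7.46% lower. Of 35 hypoxia and glycolysis genes compared, 24 were lower and none higher (median -0.87), led by *Ndrg1* (20.03 and 109 CPM), *Ndufa4l2* (127 and 673 CPM) and *Anxa2* (203 and 876 CPM). The upper 25% of day 6 cells by that list held 8.21% of *Vcan*-positive cells (6.38 to 10.4) and 32.7% of the others (30.5 to 34.97). Of 21 immediate early genes compared, 17 were lower and none higher (median -1.25), *Fos* standing at 921 and 2168 CPM and *Dusp1* at 50.6 and 212 CPM. Of 20 genes of the integrated stress response, 5 were lower, *Nupr1*, *Atf3* (710 and 2077 CPM) and *Ppp1r15a* (40.5 and 86.1 CPM) the lowest, and 3 were higher, namely *Phgdh* and *Psph* of serine synthesis and the amino acid transporter gene *Slc7a5*. When the 25% of cells highest in the hypoxia list was left out of both groups, *Wif1* stayed at a log2 ratio of 1.89, and 206 genes were higher.

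**Figure D4:**
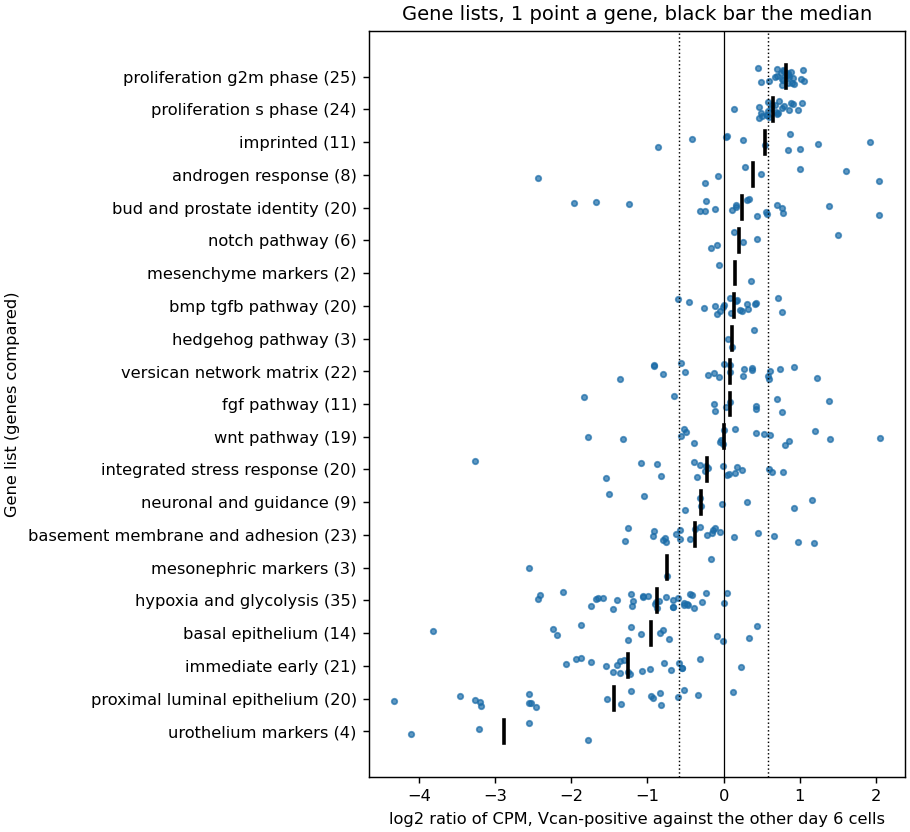
Log2 ratio of CPM, *Vcan*-positive cells against the other day 6 cells (horizontal axis), for each gene compared in 21 gene lists (vertical axis, number of genes in brackets), with 1 point per gene, a black bar at the median and dotted lines at 1.5-fold. The G2/M list has a median of 0.82, the hypoxia and glycolysis list -0.87 and the urothelial list -2.88, and the bud, FGF and Wnt lists hold genes on both sides around medians of 0.24, 0.08 and 0.01.

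Most markers of other cell types were near 0 in the *Vcan*-positive cells. Of 24 mesenchyme genes, 2 were high enough to compare, *Dcn* and *Vim* (34.4 and 26.8 CPM), and neither was past 1.5-fold in the whole comparison. Against the other *Krt5*/*Krt14*-low cells *Dcn* was higher (log2 ratio 1.22) and *Vim* stood at 0.22. After thinning, a *Dcn* UMI was present in 59.8% of *Vcan*-positive and 73.3% of *Krt5*/*Krt14*-high cells. *Col1a2* was found in 4 of 780 cells, 17 of its 25 UMIs in 1 of them. The summed mesenchyme list had a median of 3.33 per 10000 in *Vcan*-positive cells (quartiles 0.726 and 7.76) and 2.47 in the others (0 and 7.86). Of 6 mesonephric genes 3 were compared, *Hoxb7* and *Wfdc2* being lower, and *Gata3* stood at -0.17. None of 8 neuroendocrine and none of 13 blood and endothelial genes reached 20 CPM. *Ptprc*, which marks leukocytes, was at 0 UMIs in the *Vcan*-positive cells, that is, not detected in 13928075 UMIs. All 12 *Chga* UMIs, a neuroendocrine marker, came from 1 cell.

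The 780 cells differed among themselves along the keratin axis, which the rule had capped but not removed. Under 5 *Krt5* plus *Krt14* UMIs per 10000 were 287 cells, between 5 and 15 were 309, and between 15 and 25 were 184. From the lowest to the highest of these groups *Etv4* stood at 202, 158 and 110 CPM and *Mest* at 112, 43.5 and 13.9 CPM. *Top2a* followed the same order, at 358, 219 and 193 CPM. *Dcn* ran the other way, at 201, 481 and 755 CPM, as did *Apoe* (83.3, 180 and 228 CPM), *Trp63* (109, 139 and 158 CPM) and *Fos* (638, 981 and 1347 CPM). *Vcan* itself stood at 385, 405 and 401 CPM, and *Sox9* at 180, 202 and 199.6 CPM, so neither followed the keratins. Median depth was 18573, 15879 and 14295.5 UMIs in the 3 groups.

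Against the 36 *Krt4*/*Psca* cells alone more genes were past 1.5-fold, but on 587922 UMIs, against 23692233 in the other day 6 cells together. Counting error alone puts more genes past 1.5-fold on so few UMIs, so these shares cannot be set beside those of the other comparisons. Of 5336 genes compared, 1347 (25.2%) were higher and 1031 (19.3%) lower, around a median over all genes of 0.12. *Col4a1* had a log2 ratio of 4.63 (3.79 to 5.63) and *Etv4* 4.02 (2.90 to 5.47). *Wif1*, found in 2 of the 36 cells, had a ratio of 5.43 with a wide interval of 3.57 to 8.47. *Ly6d* stood at 1143 CPM in *Krt4*/*Psca* cells and *Nupr1* at 1112 CPM, against 7.40 and 5.82 CPM. Against *Krt5*/*Krt14*-high cells 429 of 5330 genes (8.05%) were higher and 464 (8.71%) lower. *Mest* (log2 ratio 2.76) and *Wif1* (2.496) were again among the higher, and *Upk3bl* (-4.29) and *Ly6d* (-4.09) among the lower.

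The rule was then applied unchanged to the other time points. It was met by 124 of 824 cells on day 0 (15.05%, 12.7 to 17.7), 151 of 902 on day 1 (16.7%, 14.4 to 19.3), 298 of 1042 on day 3 (28.6%, 25.9 to 31.4) and 780 of 2487 on day 6. Median depth was higher on the earlier days (18560, 17563 and 17204.5 UMIs) than on day 6 (13501 UMIs), and with every cell thinned to 6000 UMIs the shares were 1.10% (0.502 to 2.07), 1.82% (1.04 to 2.93), 6.79% (5.33 to 8.50) and 13.6% (12.3 to 15.1). The level of *Vcan* over all *Epcam*-positive, *Pax2*-low cells was 50.9, 65.1, 124 and 213 CPM. The order of days was therefore the same on all 3 measures, but the intervals of days 0 and 1 overlapped for both shares, and those of days 3 and 6 overlapped for the unthinned share. Each day was 1 pool, so a difference between pools cannot be told apart from one between days.

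The genes with the highest and lowest ratios on day 6 were past 1.5-fold on day 3 as well, and fewer of them were before. On day 3, 486 of 5366 genes (9.06%) were higher and 550 (10.2%) lower in cells meeting the rule than in the rest, and all of the 15 highest and all of the 15 lowest day 6 genes were past 1.5-fold in the same direction. On day 1, 0.539% of 5570 genes were higher and 1.58% lower, and 6 of the 15 highest and 10 of the 15 lowest were past 1.5-fold. On day 0, 0.333% of 5700 genes were higher and 1.09% lower, and 6 of the 15 highest and 5 of the 15 lowest were. Only 10 of the 15 highest were above the rest at all on day 0, and *Hist1h2ae* was past 1.5-fold the other way (-0.65), with *Rasl11b* at -0.55, *Homer2* at -0.49 and *Bok* at -0.46. *Wif1* stood at 36.6 CPM in cells meeting the rule on day 0, 66.5 on day 1, 271 on day 3 and 146 on day 6, with log2 ratios to the rest of 1.29, 1.24, 1.69 and 2.06. *Mest* peaked on day 3, at 307 CPM, and stood at 64.5 CPM on day 6. *Ly6d* had log2 ratios of -0.02 on day 0 and -0.28 on day 1, then -4.68 on day 3 and -4.33 on day 6. The ratio of *Sox9* was nearly level throughout, at 0.42, 0.37, 0.52 and 0.44. Its level was not, at 114, 186, 227 and 193 CPM in cells meeting the rule on days 0, 1, 3 and 6. *Hey1* was past 1.5-fold on day 6 only (1.504), at -0.34, -0.02 and 0.09 on the earlier days. Cells meeting the rule were also deeper than the rest on each day, with medians of 31072.5 against 17343.5 UMIs on day 0, where the excess was widest.

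**Figure D5:**
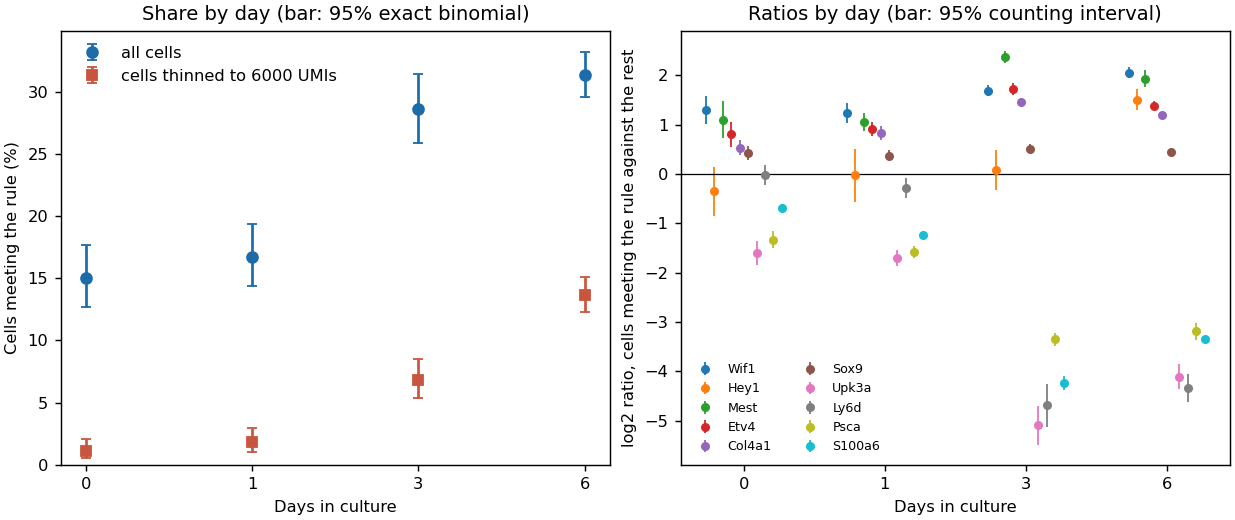
Left, share of *Epcam*-positive, *Pax2*-low cells meeting the rule (vertical axis, percent) by days in culture (horizontal axis), in all cells (blue circles) and in cells thinned to 6000 UMIs (red squares), with 95% exact binomial intervals. Right, log2 ratio of cells meeting the rule to the rest of the same day for 10 genes, with 95% counting intervals. Shares run from 15.05% to 31.4%, or 1.10% to 13.6% thinned, and *Ly6d* moves from -0.02 on day 0 to -4.68 on day 3 while *Sox9* stays between 0.37 and 0.52.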

How the data were processed

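UGS explant cells were profiled by 3′ droplet single-cell RNA-seq. Per the submitters' processing notes the authors used Cell Ranger 3.1.0 and mm10 (GRCm38). The UMI counts per gene and cell and the MULTI-seq barcode UMI counts were used as deposited, unnormalized. Quality limits (over 1000 genes, under 7.5% of UMIs mitochondrial) left 6614 of 7474 cells. A day was assigned where the largest barcode count, divided by that barcode's median over the library, was at least 3 and at least 2 times the next (5541 cells). No doublet caller was run: cells with strong counts of 2 barcodes got no day, while doublets within a day remain. UMIs were summed over each group. Ratios carry 95% intervals from the exact conditional binomial, and shares 95% exact (Clopper-Pearson) intervals. The ratio step was tested on simulated data (Python 3.11.15, numpy 2.4.6, scipy 1.17.1, pandas 2.3.3). Total depth of the *Vcan*-positive cells was 13928075 UMIs, and of the other day 6 cells 23692233.

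Genes named were the 15 highest and 15 lowest ratios (mean at least 20 CPM, higher group at least 50 CPM, without the genes of the rule, mitochondrial and ribosomal protein genes), the 3 highest and 3 lowest of each of 23 lists, and *Sox9*, *Hoxb13*, *Shh*, *Notch1*, *Trp63*, *Runx1*, *Krt4*, *Psca*, *Krt8*, *Dcn*, *Apoe* and *Dlk1*. Some genes that meet these rules are not reported here, but stay in the counts. A few other list members and *Hapln1* were picked after their values were seen. The cells and lists were chosen with earlier results of these data known. Gene positions are those of the GRCm38 annotation. Alternatives varied the *Vcan* limit, the comparison cells, depth, quality limits, the expression filter and the cells high in the hypoxia or G2/M lists. The adult libraries were read only for cell numbers and barcodes.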

Additional observations from a re-analysis of the deposited data

How the results depend on the processing

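Each day was 1 pool, so the spread between explants is unknown, and depth limits what can be said of genes under 20 CPM. No paired analysis was possible because the explant library is 1 sample and no test was run. Of 93 named genes past 1.5-fold, 89 kept their direction in all 18 alternatives and 61 stayed past 1.5-fold, and of 8 lists with such a median 7 kept direction and 2 stayed past it.

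The share of *Vcan*-positive cells, 31.4%, was 37.3% with a limit of 2 *Vcan* UMIs, 21.4% with 5, 28.5% with 2 per 10000, 34.98% among cells of 10000 to 30000 UMIs, 28.5% without the tenth of cells with most UMIs, 38.4% without the 25% of cells highest in the hypoxia and glycolysis list and 25.8% without the 25% highest in the G2/M list. The 323 higher genes became 179 with 2 *Vcan* UMIs per 10000, 656 against cells with no *Vcan* UMI, 206 without the hypoxia-high cells, 630 with the filter lowered to 5 CPM, and 2166 with no filter. The 400 lower genes became 618 against cells with no *Vcan* UMI, 965 at 5 CPM and 3050 with no filter. These numbers differ partly because the settings test other numbers of genes and cells.

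Signs changed for *Col17a1* (0.13 against *Krt5*/*Krt14*-low cells), for *Plk1* (-0.74) and the G2/M list median (-0.34) without the G2/M-high cells, which removes those genes' cells by construction, and, between *Krt5*/*Krt14*-high cells with and without *Vcan*, for *Flrt3* (0.037), *Hist1h2ae* (-0.11) and *Plk1* (-0.11). That last comparison, and barcode medians taken over cells past the quality limits (share 31.3%), were added after seeing the data. The cause of the other changes was not tested.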
